A study of Mus musculus with 6 samples.

Results

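The baseline transcriptome of the normal mouse thoracic aorta was described from 3 bead arrays labelled wild type (WT), out of 6 in the series. Each array carried 45281 probes, of which 15463 (34.1%) had a detection p-value under 0.05 on all 3 WT arrays and formed the set described here. Through the platform annotation these probes named 9007 genes, 47.3% of the 19057 genes with a named probe. A gene was represented by its brightest detected probe and ranked by the mean of its log2 intensity, 1 being the brightest.

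RNA came from the thoracic aorta of male C57Bl/6 mice aged 3 to 4 months with the genotype SM22αCre-Ndstwt/wt. That name is read here as lacking the smooth muscle Cre and any deleted Ndst allele. The series compares these mice with mice lacking Ndst1 in smooth muscle, whose arrays were not used. Whether the 3 WT samples came from separate mice is not said in the labels, so each ± below is the standard deviation between 3 arrays and may be technical. Nor do the labels say whether perivascular fat or blood was removed. Ndst1 itself was not analysed here.

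The aorta is built of a media of smooth muscle cells and elastic sheets, an inner endothelium, an outer adventitia of fibroblasts and collagen, and, around the thoracic part in mice, fat of the brown type. Smooth muscle sets vessel diameter through actin and myosin, whereas brown fat burns fatty acids in mitochondria to make heat. In RNA of whole tissue, fewer cells of a type and less RNA per cell cannot be told apart. A rank orders probes by brightness, which also depends on how well each probe binds its target, so it is not an order of transcript copies.

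On WT replicates 1, 2 and 3, 18131, 17644 and 17549 probes were detected, with a median non-normalized intensity of 254, 263 and 263 among the detected. The 3 arrays ranked the detected probes almost identically, with a Spearman correlation of 0.986 and a Pearson correlation of 0.993 for each pair, given as a description across probes that share the same arrays. Over the 9007 genes the mean log2 intensity ran from 4.97 to 15.42 with a median of 7.56. The brightest 10%, 901 genes, lay at or above 10.50.

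Many of the 30 brightest named genes belonged to mitochondrial energy production, brown fat or haemoglobin, and smooth muscle actin was among them. The brightest gene was Dbi, which encodes the acyl-CoA binding protein, with deposited intensities of 42512, 44476 and 46573 on WT replicates 1, 2 and 3. It ranked the highest gene on each array. ND4 (15.36 ± 0.04) and CYTB (15.32 ± 0.04), both encoded by the mitochondrial genome, followed at ranks 2 and 4, and ND1 stood at rank 20. All 8 named genes of the mitochondrial genome on the array were detected.

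Smooth muscle α-actin, Acta2, read 37700, 35364 and 36961 on WT replicates 1, 2 and 3, which gave 15.15 ± 0.03 on the log2 scale and rank 7. The haemoglobin genes Hbb-bt (15.33 ± 0.04), Hbb-bs (15.25 ± 0.04) and Hba-a1 (15.08 ± 0.02) stood around it at ranks 3, 5 and 9. Fth1, the heavy chain of the iron store ferritin, was at rank 8.

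The other genes of the first 30 fell mostly into energy metabolism and translation. Atp5b, Cox6b1, Cox6a1, Cox5b, Ndufa4, Cox4i1, Ndufb8, Atp5j2 and Uqcr10 encode parts of the respiratory chain or ATP synthase and lay between 14.45 and 15.21. Scd1 (14.90 ± 0.06), a desaturase of fatty acids, Acly (14.85 ± 0.01), which makes acetyl-CoA for lipid synthesis, and Acadm (14.66 ± 0.03), an enzyme of fatty acid oxidation, were at ranks 11, 12 and 17. Rpl41, Rps29, Rpl23 and Eef1a1 serve the ribosome, and Ifi27 is an interferon-inducible gene. A standard deviation of 0.00, as for Cox6b1, arises because quantile normalization gives equal values to the same rank on every array.

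**Figure D1:**
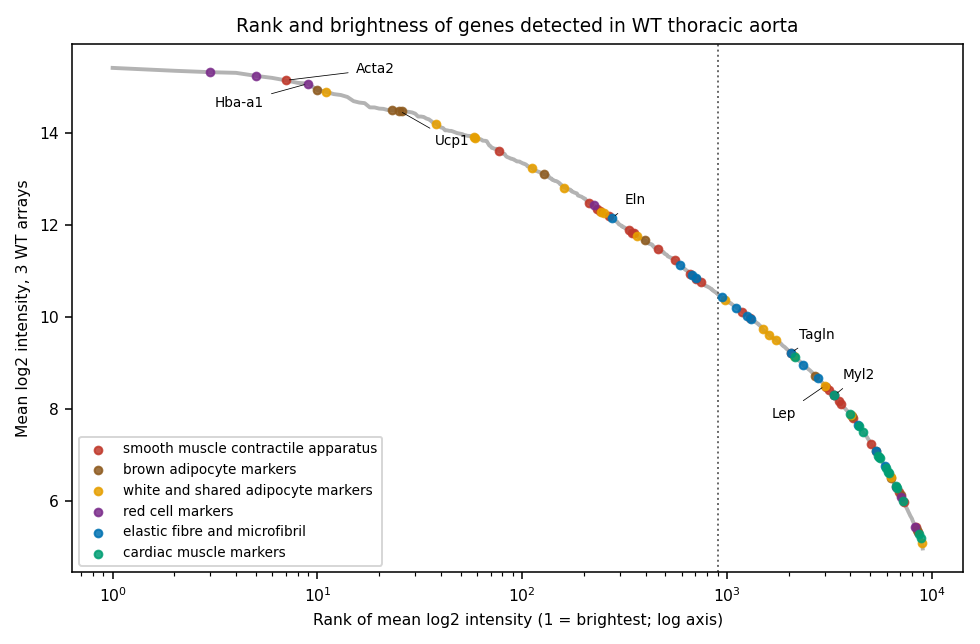
Mean log2 intensity over the 3 WT arrays (vertical axis) against rank (horizontal log axis) for the 9007 detected genes, grey, with members of 6 gene lists as coloured points and the end of the brightest 10% (901 genes) as a dotted line. Acta2, haemoglobin and brown adipocyte genes lie at the far left, and no cardiac gene lies left of the dotted line.

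Smooth muscle genes were widely detected and spread over the whole ranking. The list read here holds the contractile apparatus, its regulators and cytoskeletal genes that other cells also use, such as Flna and Actn1. Of its 32 genes on the array 27 were detected (84.4%, against 47.3% of all named genes). Of the 27, 14 lay in the brightest 10%, which holds 10% of all detected genes. The median of the 27 was 10.8, against 7.56 over all detected genes. After Acta2 came Myl6 (13.62 ± 0.05), a light chain of non-muscle and smooth muscle myosin, Tpm1 (12.49 ± 0.06), a tropomyosin, Myl9 (12.36 ± 0.04), the regulatory light chain, and Vim (12.32 ± 0.10), an intermediate filament that other mesenchymal cells also make. Probes of Mrtfa, Mrtfb, Nexn and Smoc2, the last a matricellular protein, were detected on no WT array.

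Of the defining smooth muscle genes outside this rule of the 5 brightest, some were bright and some near the detection limit. Myh11, the smooth muscle myosin heavy chain, read 3624, 3891 and 3682 on WT replicates 1, 2 and 3 and ranked 349. Tagln, the actin-binding protein SM22α whose promoter gives the Cre line its name, read 694, 741 and 694 and ranked 2047. Cnn1, a calponin, was near the detection limit at 5.32 ± 0.13.

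Probes of the same gene gave very different ranks, and the smooth muscle genes show how far. The 6 probes of Acta2 read 15.15, 13.38, 13.18, 12.68, 6.32 and 4.53 in mean log2 intensity, the last of them detected on no WT array. Another probe of Tagln, at 4.32, and another of Myh11, at 4.44, were also detected on no array. Among genes with at least 3 probes, the other 5 with the widest disagreement were Cox5b, Atp5l, Rpl23, Rps24 and Rpl37, whose brightest and dimmest probes were 9.41 to 10.16 log2 units apart. A low rank or an undetected probe therefore does not show that a transcript is scarce. The same holds for genes that most cells use but whose probes were detected on no WT array, among them Rpl6, Rpl14, Ndufs1 and Ctsl.

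Promoters of the smooth muscle list were read for the CArG box, the site to which the serum response factor binds in many muscle genes. RefSeq promoter windows (GRCm38.p6, 250 bases before to 50 after the start of each gene) were found for 7302 of the 9007 detected genes. The motif is CC, any 6 bases of A or T, then GG, so it reads the same on either strand. It was present in 5 of 23 detected smooth muscle genes with a window (21.7%), in 130 of the 7302 detected genes (1.78%) and in 1.63% of all 32851 windows. The 5 genes were Myl6, Myl9, Srf, Cnn2 and Ldb3, and a match is a description of letters, not a site shown to be used. Acta2, Myh11, Tagln and Cnn1 were not among the 5, which does not show that they lack a CArG box. Of the 27 detected genes of the list only 23 had a window. Sites outside the window or with other letters were not counted. Of detected brown adipocyte, white adipocyte, oxidative phosphorylation and elastic fibre genes with a window (9, 13, 35 and 8), 0 held the motif.

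The windows of all 5 genes are shown because they place the motif beside the level of the gene, with the CArG box in capitals. Myl6 and Myl9 are among the brightest of the list, at ranks 77 and 232, whereas Srf (8.48 ± 0.15), the factor itself, and Cnn2 (7.25 ± 0.19), a calponin, ranked 3043 and 5037. Ldb3 (5.42 ± 0.13), a PDZ and LIM domain protein of muscle, ranked 8341. The motif was thus present in genes from across the ranking.
Myl6, chr10:128492960-128493259, minus strand: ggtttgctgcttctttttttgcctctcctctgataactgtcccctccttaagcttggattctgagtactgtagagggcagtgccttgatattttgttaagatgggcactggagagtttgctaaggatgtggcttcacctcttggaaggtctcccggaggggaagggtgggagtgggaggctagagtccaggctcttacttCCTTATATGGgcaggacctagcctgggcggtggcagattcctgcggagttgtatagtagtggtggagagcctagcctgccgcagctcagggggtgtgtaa
Myl9, chr2:156775214-156775513, plus strand: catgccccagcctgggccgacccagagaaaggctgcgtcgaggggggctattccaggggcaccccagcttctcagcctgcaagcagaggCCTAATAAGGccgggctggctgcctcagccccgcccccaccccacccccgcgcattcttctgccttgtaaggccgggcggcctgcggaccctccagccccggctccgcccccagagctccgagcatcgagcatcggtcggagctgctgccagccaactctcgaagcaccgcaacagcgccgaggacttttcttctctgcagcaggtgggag
Srf, chr17:46556113-46556412, minus strand: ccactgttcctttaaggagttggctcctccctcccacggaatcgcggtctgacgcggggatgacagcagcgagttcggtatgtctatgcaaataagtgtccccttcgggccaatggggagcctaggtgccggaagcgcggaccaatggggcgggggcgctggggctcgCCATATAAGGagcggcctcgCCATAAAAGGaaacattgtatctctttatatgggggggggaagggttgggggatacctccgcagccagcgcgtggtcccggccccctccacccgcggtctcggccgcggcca
Cnn2, chr10:79988350-79988649, plus strand: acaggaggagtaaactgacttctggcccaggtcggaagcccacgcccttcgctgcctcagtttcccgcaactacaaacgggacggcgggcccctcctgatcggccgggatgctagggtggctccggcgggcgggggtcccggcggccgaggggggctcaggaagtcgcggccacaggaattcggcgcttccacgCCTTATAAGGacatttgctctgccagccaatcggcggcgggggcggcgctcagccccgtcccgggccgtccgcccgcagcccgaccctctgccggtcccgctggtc
Ldb3, chr14:34588632-34588931, minus strand: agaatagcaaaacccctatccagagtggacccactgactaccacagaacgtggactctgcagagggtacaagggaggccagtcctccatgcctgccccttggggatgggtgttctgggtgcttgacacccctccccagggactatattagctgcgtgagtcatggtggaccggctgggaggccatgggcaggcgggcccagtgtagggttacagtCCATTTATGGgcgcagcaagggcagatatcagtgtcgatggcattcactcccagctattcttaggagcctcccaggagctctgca
The match begins at position -50 from the start in Myl6, -161 in Myl9, -56 in Cnn2 and -35 in Ldb3, and the first of 2 matches in Srf begins at -82.

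Brown fat genes were among the brightest on every WT array. Ucp1, which uncouples respiration from ATP synthesis to make heat and is the defining gene of brown and beige fat, read 21494, 23289 and 24737 on WT replicates 1, 2 and 3. That placed it at ranks 30, 25 and 18, and at 14.49 ± 0.10 (rank 25) on average. Cox8b (14.94 ± 0.00), Cox7a1 (14.50 ± 0.04) and Cidea (14.48 ± 0.07), a lipid droplet protein, were at ranks 10, 23 and 26. Cox8b and Cox7a1, subunits of cytochrome c oxidase, are also made in striated muscle. Of 14 brown adipocyte markers on the array 13 were detected (92.9%, against 47.3% of all named genes), 6 of them in the brightest 10%. Zic1 was detected on no WT array. The list was split by level: Fabp3 (13.11 ± 0.10) was the fifth brightest, and its median gene, Ebf2, stood at 8.72 ± 0.03.

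Genes shared with white fat were also widely detected. Of 21 on the array 18 were detected (85.7%, against 47.3% of all named genes). The median of the list was 11.1, with 9 genes in the brightest 10%. The brightest were Scd1, Lpl (14.21 ± 0.06), the lipase that releases fatty acids from lipoproteins, Thrsp (13.91 ± 0.10), Pnpla2 (13.89 ± 0.08), the triglyceride lipase of fat cells, and Car3 (13.25 ± 0.05). Outside the 5 brightest, the hormone adiponectin (Adipoq) read 7869, 6844 and 7494 and ranked 160, and leptin (Lep) read 474, 500 and 458 and ranked 3012. Probes of Retn, Acaca and Agt were detected on no WT array. How much of the aortic RNA came from perivascular fat was not tested.

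Oxidative phosphorylation was the list with the highest median, whose gene stood at percentile 98.5 of all detected genes. Of its 47 nuclear genes on the array 44 were detected (93.6%, against 47.3% of all named genes). Of those, 35 lay in the brightest 10%. Atp5b, the β subunit of ATP synthase, led it at 15.21 ± 0.00, and probes of Ndufs1 and Uqcrfs1 were detected on no array. Cytosolic ribosomal proteins followed with a median of 12.4, 49 of 55 detected (89.1%) and 38 in the brightest 10%. In glycolysis 15 of 20 genes were detected (75%) and 7 lay in the brightest 10%, led by Ldha (13.86 ± 0.05), Aldoa (13.59 ± 0.06) and Pkm (13.55 ± 0.01). Among the 100 brightest genes, 16 were in the oxidative phosphorylation list, 12 were ribosomal, 5 were encoded by the mitochondrial genome, and 2, Acta2 and Myl6, were in the smooth muscle list. The oxidative phosphorylation list is not complete, and further nuclear genes of that kind, such as Atp5j2 and Uqcr10, were also among the 100.

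The motif TCAAGGTCA, to which estrogen-related receptors bind, was read in the same windows on both strands. It was present in 2 of 35 detected oxidative phosphorylation genes with a window (5.71%), in 0.315% of detected genes and in 0.423% of all windows. Of detected smooth muscle, brown adipocyte, white adipocyte and elastic fibre genes with a window (23, 9, 13 and 8), 0 held it. The 2 genes were Sdhd (9.37 ± 0.12), where the match begins 36 bases after the start, and Atp5g3 (13.31 ± 0.02), where it begins at -52. Atp5g3, a subunit of the ATP synthase ring, is the brighter of them. Its window is shown, with the motif on the opposite strand in capitals.
Atp5g3, chr2:73911277-73911576, minus strand: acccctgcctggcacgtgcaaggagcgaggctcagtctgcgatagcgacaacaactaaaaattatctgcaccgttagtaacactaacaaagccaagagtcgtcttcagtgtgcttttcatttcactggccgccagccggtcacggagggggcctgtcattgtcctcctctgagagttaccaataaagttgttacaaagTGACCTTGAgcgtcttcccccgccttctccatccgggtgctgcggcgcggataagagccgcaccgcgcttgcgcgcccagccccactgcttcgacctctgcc

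**Figure D2:**
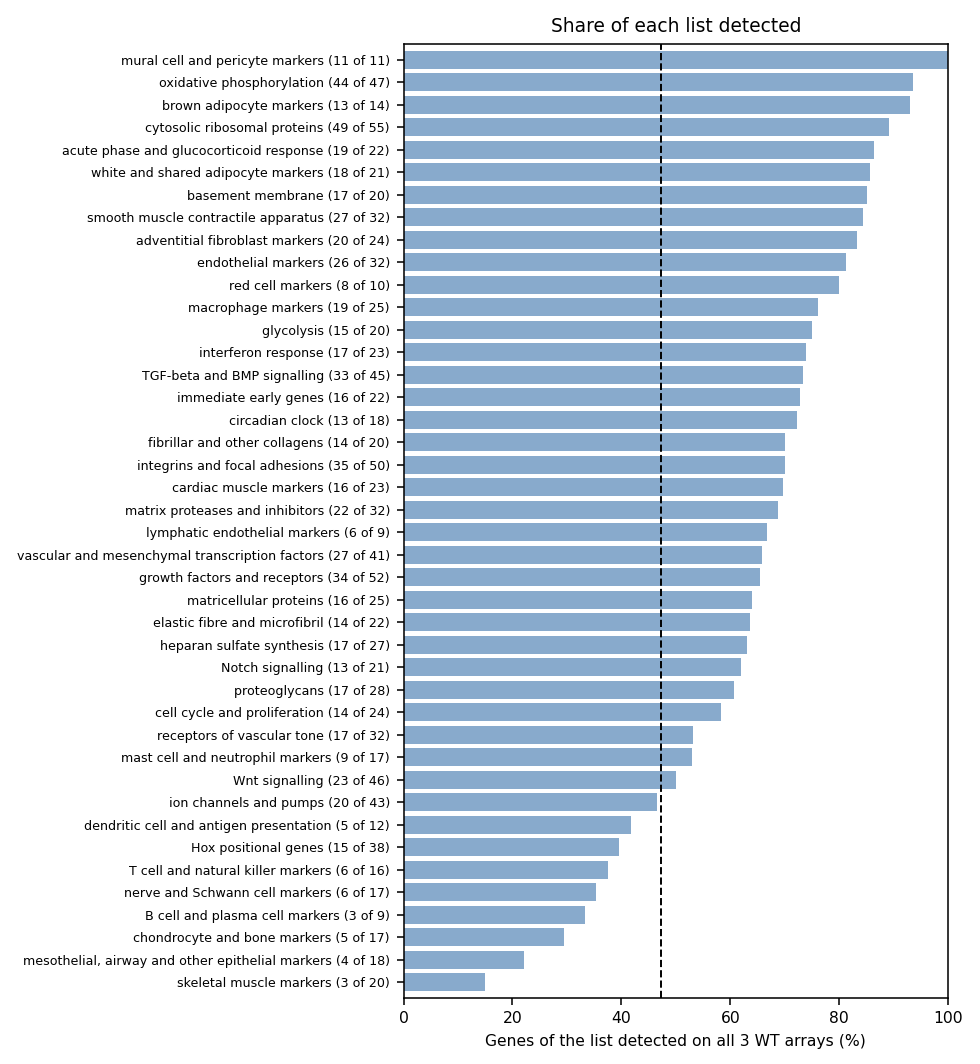
Percent of the genes of each list that were detected on all 3 WT arrays (bars from 0), for lists with at least 9 genes on the array, with the numbers detected and on the array in brackets. The dashed line is the 47.3% of all named genes that were detected. The lists of T cell, B cell, dendritic cell, nerve, cartilage, epithelial and skeletal muscle markers end to the left of it. So do Hox genes and, by little, ion channels and pumps.

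Endothelial genes were mostly detected, and their median lay above that of all detected genes. Of 32 on the array 26 were detected (81.2%, against 47.3% of all named genes), with a median of 8.96. The brightest 10% held 2 of them. Cav1 (12.70 ± 0.08), the caveolae protein that smooth muscle and fat also make, Egfl7 (11.60 ± 0.07), Esam (10.27 ± 0.07), Flt1 (10.20 ± 0.08), a receptor for VEGF, and Robo4 (9.85 ± 0.12) were the brightest. Of the defining genes outside these 5, Pecam1 read 926, 1070 and 935 on WT replicates 1, 2 and 3, Cdh5, the cadherin of endothelial junctions, read 567, 588 and 579, and Nos3, the endothelial nitric oxide synthase, read 686, 667 and 707. Probes of Kdr, Erg, Ecscr, Clec14a and Procr were detected on no array. Of 9 lymphatic endothelial markers 6 were detected (66.7%), led by Pdpn (8.64 ± 0.02), and probes of Prox1 and Stab2 on no array.

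Mural cell and pericyte markers, all 11 of which were detected (100%, against 47.3% of all named genes), had a median of 7.80. Mcam (10.45 ± 0.10), Rgs4 (8.55 ± 0.15), Rgs5 (8.52 ± 0.08), Cspg4 (8.25 ± 0.04) and Abcc9 (8.08 ± 0.18) led them, and none lay in the brightest 10%. Adventitial fibroblast markers were detected for 20 of 24 genes (83.3%) with a median of 9.37. Dcn (13.22 ± 0.03), the collagen-binding proteoglycan decorin, was the brightest, followed by Serpinf1 (11.70 ± 0.08), Ly6c1 (10.80 ± 0.07), Pi16 (10.25 ± 0.01), a marker of adventitial fibroblast progenitors, and Mfap5 (10.21 ± 0.00). Smpd3, Tcf21 and Gli1 were detected on no array.

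**Figure D3:**
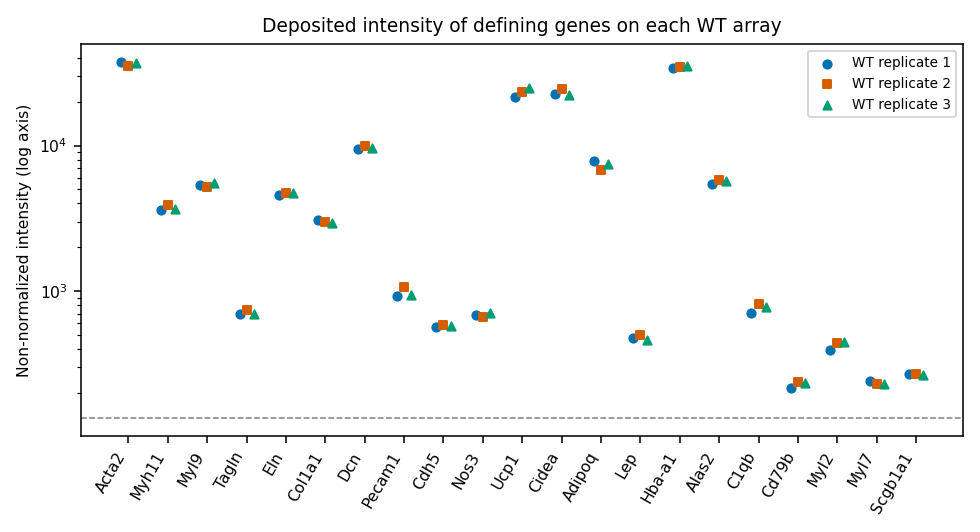
Deposited, non-normalized intensity (log axis) of 21 genes that mark cell types and matrix on each of the 3 WT arrays (circles, squares and triangles). The dashed line is the average of the 3 arrays' median intensities, and the 3 values of each gene lie close together compared with the distances between genes.

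The extracellular matrix of the aorta was represented by elastic fibre, collagen, basement membrane and proteoglycan genes. Elastin, Eln, which forms the elastic sheets of the media, read 4581, 4718 and 4736 on WT replicates 1, 2 and 3 and ranked 274 at 12.16 ± 0.01. Its other probe, also detected, read 6.02 ± 0.15. Loxl1 (11.13 ± 0.08), a lysyl oxidase that crosslinks elastin, Ltbp4 (10.92 ± 0.09), Mfap4 (10.85 ± 0.06) and Ltbp3 (10.44 ± 0.02), which bind microfibrils or elastic fibres, followed. Of the 22 genes of this list 14 were detected (63.6%, against 47.3% of all named genes), their median at percentile 85.8. Probes of Fbln5, Mfap1a and Loxl3 were detected on no array.

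Among collagens Col18a1 (12.04 ± 0.03), Col1a1 (11.48 ± 0.05), Col6a1 (11.26 ± 0.09), Col5a1 (9.94 ± 0.11) and Col6a2 (9.51 ± 0.04) were the brightest of 14 detected out of 20. The cartilage collagens Col2a1 and Col10a1, with Col11a1 and Col17a1, were detected on no array. In the basement membrane 17 of 20 were detected, led by Sparc (13.45 ± 0.08), Col4a1 (12.19 ± 0.07), Col4a2 (11.45 ± 0.12), Hspg2 (11.22 ± 0.05), the heparan sulfate proteoglycan perlecan, and Agrn (10.25 ± 0.05). The small leucine-rich proteoglycans Bgn (13.38 ± 0.03), Dcn, Prelp (12.45 ± 0.05), Ogn (11.71 ± 0.11) and Lum (9.53 ± 0.06) were the 5 brightest of 17 proteoglycan genes detected out of 28. Detected were thus 70% of the collagens, 85% of the basement membrane genes and 60.7% of the proteoglycans, against 47.3% of all named genes.

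Matricellular proteins were led by Mgp (13.73 ± 0.03), the matrix Gla protein that restrains calcification of the arterial wall, then Sparc, Ccn2 (13.17 ± 0.01), Igfbp7 (13.08 ± 0.02) and Smoc1 (10.07 ± 0.05), with 16 of 25 detected. Thbs4, Tnn, Tnr, Postn and Smoc2 were among the 6 detected on no array. Of 32 proteases and inhibitors 22 were detected (68.8%), and of the matricellular genes 64%, against 47.3% of all named genes. The inhibitors Cst3 (13.66 ± 0.05), Timp2 (11.43 ± 0.09) and Timp3 (11.29 ± 0.08), the protease Ctsb (13.27 ± 0.03) and the collagen chaperone Serpinh1 (12.64 ± 0.07) were the brightest, whereas Mmp7, Mmp8, Mmp10, Mmp12 and Mmp13 were detected on no array.

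Genes that build, modify or cleave heparan sulfate, the pathway that the series concerns, were dimmer. Of 27 on the array 17 were detected (63%, against 47.3% of all named genes), none in the brightest 10%. Their median of 6.94 lay below the 7.56 of all detected genes. The chain polymerases Ext1 (10.05 ± 0.04) and Ext2 (8.50 ± 0.04), the chain initiator Extl3 (9.70 ± 0.05), the sulfatase Sulf2 (9.19 ± 0.08) and Extl2 (8.34 ± 0.02) were the brightest. Xylt1, Extl1, Ndst3, Ndst4 and Hs6st3 were among the 8 detected on no array. Ndst2, named outside the rule as a paralog of the gene deleted in the series, was detected at 7.37 ± 0.03.

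**Figure D4:**
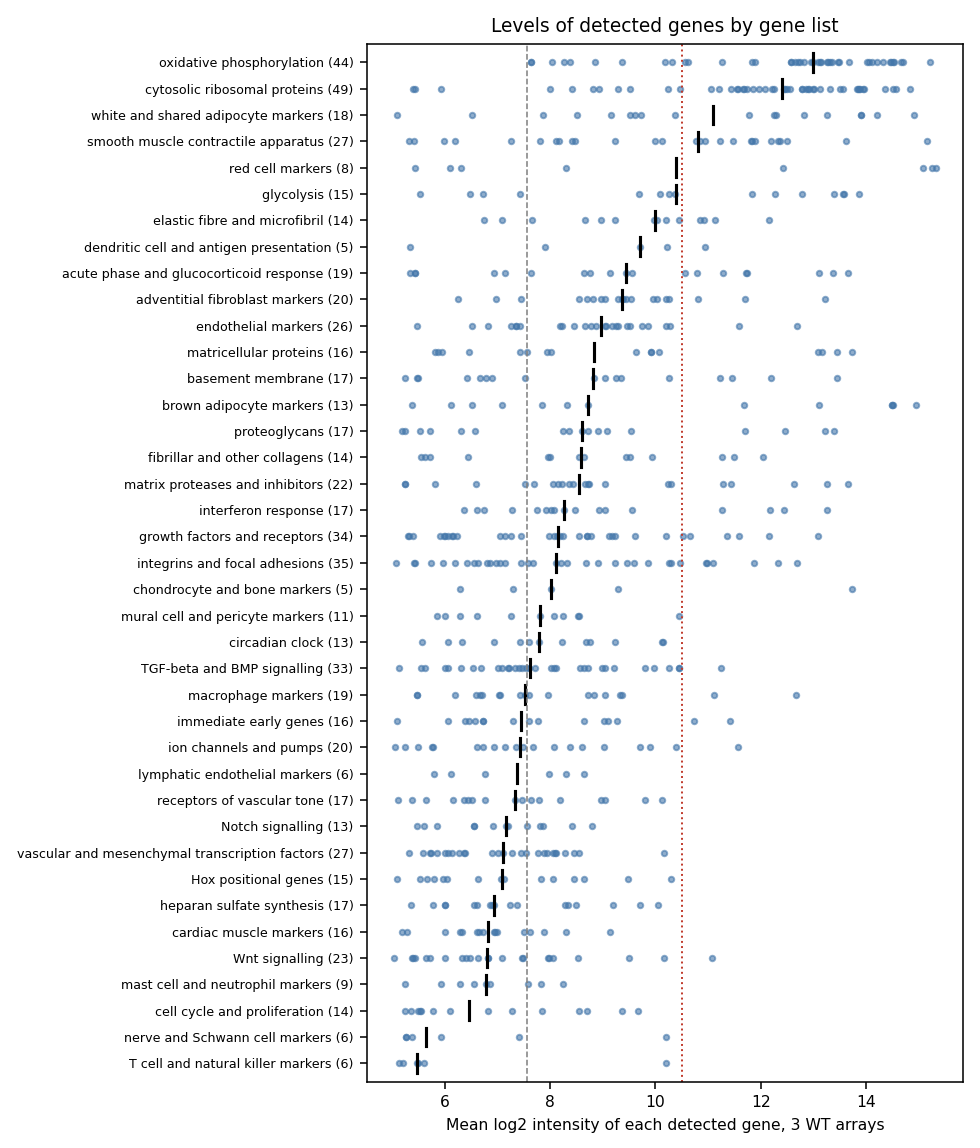
Mean log2 intensity over 3 WT arrays of each detected gene (points) for 39 lists with at least 5 detected genes, ordered by their medians (black bars), with the number of detected genes in brackets. The dashed line is the median of all detected genes (7.56) and the dotted line the lower end of the brightest 10% (10.50), which the medians of 4 lists exceed.

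Vascular tone is set through receptors, ion channels and the signals below them. Receptors and ligands were detected for 17 of 32 genes, close to the 47.3% of all named genes, and none lay in the brightest 10%. Ramp2 (10.13 ± 0.05), a partner of the adrenomedullin receptor, F2r (9.81 ± 0.05), the thrombin receptor, Ednrb (9.05 ± 0.09), an endothelin receptor, Ramp1 (8.97 ± 0.04) and Ptger3 (8.19 ± 0.15) were the brightest. Adra1b, Agtr1b, Agtr2, Htr1b and Htr2a were among the 15 detected on no array. Channels and pumps were detected for 20 of 43 genes, also close to that share, led by Atp2a2 (11.57 ± 0.09), the calcium pump of the sarcoplasmic reticulum, Itpr2 (10.40 ± 0.11), Kcnk3 (9.90 ± 0.10), Clcn3 (9.71 ± 0.10) and Stim1 (9.02 ± 0.07). The probe of Cacna1c, the main calcium channel of vascular smooth muscle, was detected on no array.

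In TGF-beta and BMP signalling 33 of 45 genes were detected (73.3%, against 47.3% of all named genes), with a median of 7.61. The receptor Tgfbr2 (11.25 ± 0.05) was the brightest, followed by Gdf10 (10.45 ± 0.06), Fstl1 (10.44 ± 0.08), Tgfbi (10.26 ± 0.06) and the receptor Bmpr2 (9.97 ± 0.06). In Notch signalling 13 of 21 were detected (61.9%). Notch4 (8.79 ± 0.07), Maml2 (8.41 ± 0.10), Nrarp (7.86 ± 0.11) and Notch3 (7.80 ± 0.10), the receptor of arterial smooth muscle, were the brightest. Wnt signalling was detected for 23 of 46, near the 47.3% of all named genes, with Ctnnb1 (11.07 ± 0.08), β-catenin, at the top and probes of the ligands Wnt1, Wnt2b, Wnt3, Wnt3a and Wnt6 on no array. Growth factors and their receptors were detected for 34 of 52 (65.4%). They were led by Igfbp7, Igfbp5 (12.15 ± 0.06), Vegfb (11.59 ± 0.05), Nrp1 (11.36 ± 0.10) and Vegfa (10.66 ± 0.07).

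Integrins and focal adhesions tie a cell to its matrix. Of 50 integrin and focal adhesion genes 35 were detected (70%, against 47.3% of all named genes), 6 in the brightest 10%. Besides Cav1 these were led by Zyx (12.33 ± 0.03), zyxin, Fblim1 (11.86 ± 0.08), Lims2 (11.09 ± 0.05) and Ilk (10.99 ± 0.05), the integrin-linked kinase. Itga2, Itga4, Itgam, Itgax and Itgb2, the last 3 of which are leukocyte integrins, were detected on no array.

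Hox genes keep a record of position along the body axis. Of 38 on the array 15 were detected (39.5%, against 47.3% of all named genes), with Hoxa5 (10.30 ± 0.07), Hoxc6 (9.48 ± 0.02), Hoxa7 (8.64 ± 0.14), Hoxb7 (8.46 ± 0.06) and Hoxb5 (8.06 ± 0.03) the brightest. By paralog group, 2 of 7 were detected in groups 1 to 3, 10 of 15 in groups 4 to 8 and 3 of 16 in groups 9 to 13. These groups are small, and the difference between them was not tested. Vascular and mesenchymal transcription factors were detected for 27 of 41 (65.9%), with a median of 7.11 and none in the brightest 10%. Klf2 (10.16 ± 0.13), which responds to flow in endothelium, Gata6 (8.55 ± 0.08), Meis2 (8.46 ± 0.14), Mef2c (8.28 ± 0.03) and Ebf1 (8.11 ± 0.11) were the brightest.

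Blood and immune cells left signals of different strength. Red cell genes were detected for 8 of 10 (80%). Alas2 (12.43 ± 0.03), the haem synthesis enzyme of red cell precursors, and Slc4a1 (8.31 ± 0.07) came after the haemoglobins. Macrophage markers were detected for 19 of 25 (76%, against 47.3% of all named genes), and 3 were detected on no array. Their median of 7.52 lay near the 7.56 of all detected genes. The brightest were Lyz1 (12.67 ± 0.01), Lyz2 (11.12 ± 0.05), the complement genes C1qb (9.36 ± 0.09) and C1qc (9.32 ± 0.12), and F13a1 (9.03 ± 0.06). The other probes of Lyz1 read 6.91 and 6.21, and Lyz1 and Lyz2 are near-identical copies, so their levels are uncertain. Dendritic cell and antigen presentation genes were detected for 5 of 12 (41.7%). Class II antigen presentation was read in Cd74 (10.95 ± 0.03), H2-Ab1 (10.23 ± 0.05), H2-Eb1 (9.71 ± 0.06) and H2-Aa (7.90 ± 0.20). The dendritic cell markers Itgax, Flt3, Xcr1, Cd209a and Ccr7 were detected on no array.

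Lymphocyte markers were detected for 6 of 16 genes of T and natural killer cells (37.5%), with a median of 5.48, and for 3 of 9 of B and plasma cells (33.3%), against 47.3% of all named genes. Cd8b1 at 10.20 ± 0.06 stood apart from the other T cell markers, but its other probes read 6.45 and 4.98, and probes of its partner Cd8a and of Cd4 were detected on no array. In the B cell list Xbp1 (10.10 ± 0.10), which other secretory cells also use, Cd79b (6.88 ± 0.09) and Mzb1 (5.42 ± 0.24) were detected. Mast cell and neutrophil markers were detected for 9 of 17 (52.9%). S100a8 (8.25 ± 0.07), Kit (7.82 ± 0.09), Hdc (7.58 ± 0.08) and Mcpt4 (6.86 ± 0.25) were the brightest.

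Markers of neighbouring tissues differed in how many were detected and how bright they were. Of 23 cardiac muscle markers 16 were detected (69.6%, against 47.3% of all named genes), with a median of 6.83 and none in the brightest 10%. They were led by Myl4 (9.13 ± 0.04), Myl2 (8.30 ± 0.10), a ventricular myosin light chain, Mb (7.89 ± 0.20), Actc1 (7.63 ± 0.09) and Sln (7.50 ± 0.14), and probes of Myh7, Nppb, Pln, Nkx2-5 and Gata4 were detected on no array. Skeletal muscle markers were detected for 3 of 20, Myl1 (11.66 ± 0.02), Tcap (rank 2311) and Eno3 (6.73 ± 0.12). The other probes of Myl1 read 6.59 and 5.62, and Myh1, Myh4, Tnnt3, Tnni2 and Ckm were detected on no array.

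Nerve, epithelial and cartilage markers were detected for 35.3%, 22.2% and 29.4% of their lists, below the 47.3% of all named genes. Nerve and Schwann cell markers were detected for 6 of 17. They were led by Pmp22 (10.20 ± 0.06), which fibroblasts also make, and Mbp (7.41 ± 0.15), a myelin protein. Th and Dbh, enzymes of sympathetic nerves, were detected on no array. Of 18 mesothelial, airway and other epithelial markers 4 were detected, Cyp2f2 (7.85 ± 0.14), Scgb1a1 (7.29 ± 0.07), both of airway club cells, Upk3b (7.10 ± 0.08) and Krt8 (5.39 ± 0.26). Chondrocyte and bone markers were detected for 5 of 17, Mgp, Cytl1 (9.28 ± 0.14), Comp (8.02 ± 0.21), Alpl (7.29 ± 0.04) and Sox9 (6.29 ± 0.16), with Acan and Col2a1 on no array. The part of neighbouring tissue in these levels was not tested.

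The 3 arrays differed little. The median standard deviation over the 15463 probes was 0.107 in log2, and it fell with level, from 0.181 for 3840 probes under 6 to 0.0488 for 474 probes over 12. Of 3785 genes with a mean of at least 8, 2937 (77.6%) had a range under 0.2, and the widest range was 0.64, a 1.56-fold difference. That gene was Scd2, a desaturase, at 8.25, 7.67 and 8.31 on WT replicates 1, 2 and 3. Col3a1, a fibrillar collagen, came next, with deposited intensities of 482, 445 and 627. The other 10 widest, Atp6v1a, Antxr1, Dap, Eif3c, Ogt, Eno1b, Tuba8, Stat3, Tmbim1 and Ywhaq, had ranges of 0.51 to 0.58 and were not all high on the same array.

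Only 16 genes had a range over 1, each with a mean under 8. The widest was Bst2, an interferon-inducible membrane protein, at 7.26, 7.03 and 5.49 on WT replicates 1, 2 and 3. Replicate 3 was the low one. Dio2, the deiodinase of brown fat, named after its values were seen, read 6.37, 5.43 and 6.59. As groups the lists moved little: over the 39 lists with at least 5 detected genes, the median deviation of a list on any array was at most 0.086.

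Genes with several detected probes give a further view of this spread. For 854 genes with at least 2 detected probes of mean log2 8 or more, compared by 2 of their probes, the deviations of the probes from their own means correlated at -0.01, -0.03 and -0.11 on WT replicates 1, 2 and 3, a description across genes that share the arrays. Over the 3 arrays together the correlation was -0.05, -0.02 with no normalization between arrays and 0.12 with median scaling. The values of the last settings differ only by a constant for each array, and their correlations within each array were the same. Within each array, probes of the same gene did not show a positive correlation under any of these settings. The standard deviations printed here describe the arrays, and the spread between mice was not measured apart from them.

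**Figure D5:**
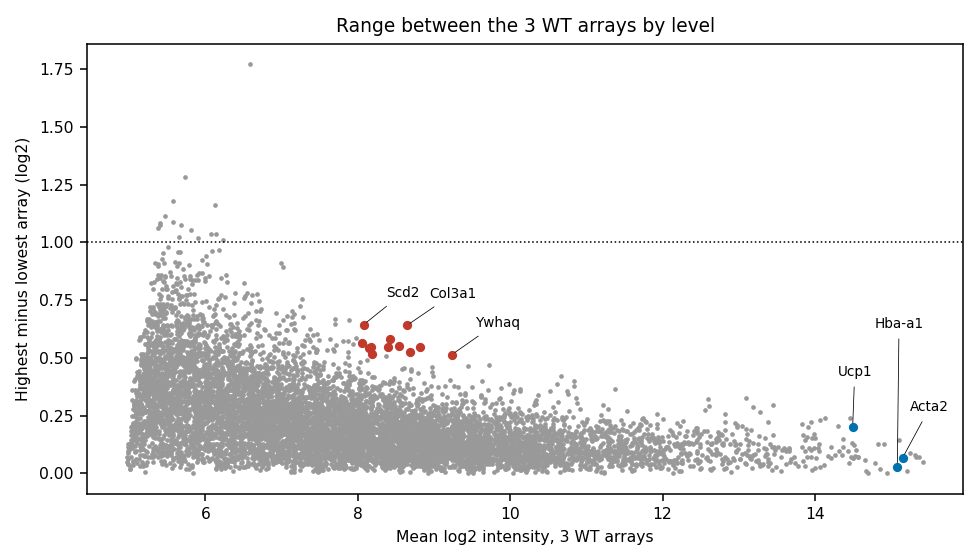
Difference between the highest and the lowest of the 3 WT arrays (vertical axis, log2) against mean log2 intensity (horizontal axis) for the 9007 detected genes, with the 12 widest ranges among genes of at least 8 in red and Acta2, Ucp1 and Hba-a1 in blue. The dotted line marks a range of 1, above which 16 genes lie, all at low levels.

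At the edge of detection, Lrrc9, Plppr1 and Rbm15b had a highest detection p of 0.0491 and were kept, and Bex2, Cacnb2 and Ipcef1, at 0.0502, were not. Their log2 values on single arrays ran from 4.90 to 5.41 inside and from 4.89 to 5.54 outside the threshold, and overlapped. The genes not kept comprised 2342 detected on 1 or 2 arrays and 7708 detected on none.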

How the data were processed

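RNA of 3 WT thoracic aorta samples was copied into biotinylated cRNA and hybridized to Illumina mouse bead arrays, 1 array per sample, per the labels' protocols. The deposited table holds, per the file headers, a linear intensity per probe and array, not scaled between arrays, and a detection p-value. Per the submitters' processing notes, GenomeStudio was used (no version). A second deposited table, the authors' processed intensities, served as an alternative; how it was scaled is not stated in the labels, and its WT medians were 135.8 to 135.9.

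The neqc function of limma 3.58.1 in R 4.3.3 applied normexp background correction, inferring the background from detection p-values; it then added 16 to each value, quantile-normalized the 3 WT arrays and took log2. This offset compresses differences of dim probes. Probes with a detection p under 0.05 on all 3 arrays were kept, and the number of arrays limits the precision. Of all probes 34885 had 1 gene in the platform annotation, 18 several and 10378 none listed. There is 1 group, so no test was made and no p-value is given beyond the detection p. The 43 gene lists hold 1169 genes, of which 1058 had a named probe and 698 were detected; a further list is not reported here.

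The members and lists were chosen with earlier results of these data known. Named were the 30 brightest genes, up to 5 brightest and 5 undetected per list, the 12 widest ranges among means of at least 8, the 6 genes with the most discordant probes and those at the edge of detection; others are said to be outside the rule. Steps were tested on simulated arrays. Alternatives changed the background correction, normalization, detection rule, choice of probe and arrays.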

Additional observations from a re-analysis of the deposited data

Results flagged for a closer look

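A signal lay outside the named genes. Of the 15463 detected probes, 2047 had no single gene in the platform annotation and entered no list or gene rank. Among the 100 brightest detected probes 27 were of this kind, and the brightest of them stood at probe ranks 2, 4 and 8, with mean log2 intensities of 15.39 ± 0.05, 15.34 ± 0.04 and 15.25 ± 0.04 (n = 3 arrays). The composition of the brightest genes given above therefore covers the named part of the brightest probes. With 3 arrays, single arrays were not screened as outliers.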

How the results depend on the processing

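The spread between WT arrays was a median standard deviation of 0.107. It was 0.0594 without background correction, 0.0602 in the authors' processed table, 0.109 with no normalization between arrays and 0.113 with median scaling. When each array was left out in turn it was 0.0856 to 0.0871. Those values rest on 2 arrays, and a median standard deviation of 2 values is lower than that of 3 for the same spread. They therefore do not show a change in spread. The detected probes numbered 13842 at a detection p under 0.01, 17213 for at least 2 of 3 arrays and 15899 to 16166 with an array left out; detected genes numbered 8289, 9762 and 9207 to 9319. The brightest 10% held the same 901 genes without background correction, under median scaling, with no normalization and in the authors' table. The background correction and scalings used here keep the order of probes within an array, so they could hardly change this set. When a gene's detected probes were averaged, 694 (77%) were shared. That choice also moved 4 of the 30 brightest genes out of the first 100, the lowest to rank 309. Among list medians, nerve and Schwann cell markers moved from percentile 12.3 to 42.3 at a detection p under 0.01, with fewer genes kept, and basement membrane from 71.6 to 53.4 for 2 of 3 arrays, 50.9 without replicate 2 and 56.8 with averaged probes. Dim probes are limited by background. No paired analysis was possible because only the WT arrays are used and no test was made.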

Other observations

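Outside the lists, the 100 brightest genes also held genes of fatty acid oxidation and lipid storage, named after their values were seen. Acadvl (13.47 ± 0.06), an acyl-CoA dehydrogenase, was at rank 86, and Dgat2 (14.05 ± 0.07), which makes triglycerides, at rank 45. Etfa, Etfb, Hadhb, Ech1 and Slc25a20, of fatty acid oxidation, were there too, as were Chchd10 (14.36 ± 0.08), a mitochondrial protein, and Tmsb4x (14.04 ± 0.06), which binds actin monomers. Gene families differed in detection, against 47.3% of all named genes. Of mitochondrial ribosomal proteins 72 of 76 (94.7%) were detected, and of proteasome subunits 41 of 49 (83.7%). Solute carriers (162 of 370, 43.8%) and zinc finger proteins (160 of 333, 48%) were near the share of all named genes. Detection was rare for olfactory receptors (5 of 1078, 0.464%), vomeronasal receptors (1 of 171) and beta-defensins (0 of 42). Eif2s3y (8.73 ± 0.21), Uty and Kdm5d of the Y chromosome were detected, in samples labelled male.

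Genes that respond to hormones, handling or time of day were detected as follows, against 47.3% of all named genes. Of 22 acute phase and glucocorticoid genes 19 were detected (86.4%), 8 of them in the brightest 10%. The brightest were the metallothionein Mt1 (13.66 ± 0.06) and Pdk4 (13.37 ± 0.04), a kinase that restrains glucose oxidation. Hp (13.10 ± 0.08), haptoglobin, Angptl4 (11.74 ± 0.13) and Orm1 (11.71 ± 0.03) followed. Outside the 5 brightest, Fkbp5 (5.44 ± 0.39), Mt2 (5.43 ± 0.10) and Zbtb16 (5.34 ± 0.08) were near the detection limit. Saa1, Saa2 and Crp were detected on no array. Immediate early genes were detected for 16 of 22 (72.7%), led by Dusp1 (11.42 ± 0.08) and Egr1 (10.73 ± 0.07). Circadian clock genes were detected for 13 of 18 (72.2%), led by Dbp (10.14 ± 0.07) and Bhlhe40 (10.13 ± 0.05). The medians of these lists, 7.45 and 7.79, lay near the 7.56 of all detected genes. Interferon response genes were detected for 17 of 23 (73.9%), led by B2m (13.25 ± 0.07), Ifi27l2a (12.45 ± 0.09) and H2-D1 (12.17 ± 0.08). Ifit1, Oas1a, Mx1 and Iigp1 were detected on no array. Cell cycle genes were detected for 14 of 24 (58.3%), with a median of 6.46 and Pcna, Ccna2, Ccnb2, Bub1 and Plk1 on no array.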
